A study of Mus musculus with 2 samples.

Results

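Spp1, the mouse gene for the secreted phosphoprotein osteopontin, was followed through every cell class of 2 single-cell libraries, 1 from normal pancreas and 1 from an implanted pancreatic tumour. It is 1 of the 27998 genes in the deposited matrices and was found by its symbol. It was selected on its measured level in these same cells, high in tumour fibroblasts and macrophages, so its levels are given as a description and were not tested.

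Both libraries came from Rosa26-mTmG;Fabp4-Cre mice, in which cells turn from membrane Tomato to membrane GFP once the Fabp4 promoter has driven Cre. The normal library, labelled PSC (pancreatic stellate cells), holds GFP-positive cells from the pancreas of mice aged 6 to 9 weeks. The tumour library, labelled CAF (cancer-associated fibroblasts), holds cells positive for GFP and PDPN from the pancreas 21 days after FC1245 cells, a mouse pancreatic cancer line, were implanted there in 8-week-old mice. The Fabp4 promoter is known from adipocytes, and is also used by some macrophages and endothelial cells. The number of mice behind each library is not given in the sources used here. With 1 library per group, no difference between the groups could be tested, and the digestion, the sorting gate and the library cannot be told apart from the tumour. Intervals are exact 95% intervals and cover counting error only.

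Osteopontin carries an arginine-glycine-aspartate motif that binds integrins, and a neighbouring stretch that other integrins bind once thrombin has cut the protein. CD44 is its other well known receptor. It was first known from bone, where it belongs to the acidic SIBLING proteins of mineralised matrix, and it is made by macrophages, by activated fibroblasts and by many carcinomas. In tumours, Spp1 is widely used as a marker of a macrophage state.

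In the GENCODE annotation of GRCm38 (mm10), Spp1 (ENSMUSG00000029304) lies on the plus strand of chromosome 5 at chr5:104435118-104441050 and has 7 transcripts. The transcript with the longest coding sequence has 8 exons and 885 coding bases, and the integrin motif is encoded by codons 145 to 147 in exon 7, at chr5:104439481-104439489. The first sequence is the coding stretch around this motif, which defines what the receptors described further on bind, with the motif's 3 codons in capitals. The second is the 250 bases before the RefSeq start on GRCm38.p6, shown because the gene went from 1 UMI in the normal to 29077 in the tumour fibroblast-like cells.

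Spp1 coding stretch, chr5:104439451-104439540, plus strand: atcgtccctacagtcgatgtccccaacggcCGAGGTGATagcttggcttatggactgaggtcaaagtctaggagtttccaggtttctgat

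Spp1 promoter, chr5:104434861-104435110, plus strand: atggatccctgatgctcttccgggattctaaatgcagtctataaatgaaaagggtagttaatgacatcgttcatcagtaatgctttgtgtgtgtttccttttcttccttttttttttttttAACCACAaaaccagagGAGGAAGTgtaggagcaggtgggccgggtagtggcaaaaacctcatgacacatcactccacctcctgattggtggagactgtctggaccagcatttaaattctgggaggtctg

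In the promoter, capitals mark a match to the RUNX motif AACCACA, which starts 129 bases before the RefSeq start, and to the ETS or PU.1 motif GAGGAAGT, 113 bases before it. Searched on both strands, these letters occur in 4.4% and 2.44% of 32851 mouse promoter windows of the same length. A CCAAT box (CCAAT), found in 33.8% of windows, lies 46 bases before the RefSeq start. The AP-1 motif TGANTCA, found in 6.75% of windows, was not among these letters. These matches are a description of the sequence, and the counts say nothing of binding.

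The cells that passed filters on genes, UMIs and mitochondrial share, with likely doublets taken out, numbered 4504 in the normal library, at a median of 7035 UMIs. In the tumour library 2520 passed, at 10156.5 UMIs. Fibroblast-like cells made up 32.5% of the normal cells, beside 30.9% macrophage-like and a similar share of endothelial-like cells, and 88.2% of the tumour cells. Neither GFP nor Cre is among the listed genes, so the sort could not be checked on them. The 2 libraries shared 4 barcodes. They also differed in the sex of the mice: of the tumour cells 2322 had an Xist UMI and none had a UMI of the 4 Y-linked genes counted, while the normal library held 1518 cells with Xist alone and 1920 with Y-linked UMIs alone. Classes were named from fixed markers after clustering without Spp1.

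Nearly all Spp1 was counted in the tumour library. The normal cells held 63 Spp1 UMIs in 28 cells, and the tumour cells held 39676 in 544 cells. Fibroblast-like cells held 73.3% of the tumour UMIs, epithelial-like cells 21.1% and macrophage-like cells 5.22%. By level, given as counts scaled to 1000000 UMIs of the class (CPM), the order was a different one, with the few epithelial-like cells first, the macrophage-like cells next and the fibroblast-like cells after them. The order of the last 2 was not resolved in cells without a marker UMI of the other classes. Macrophage-like cells stood at 226 CPM (160 to 311) there and fibroblast-like cells at 288 CPM (276 to 300), and the intervals overlap.

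The 73 epithelial-like tumour cells, led by the keratins Krt18, Krt8 and Krt19, held 8376 Spp1 UMIs, or 6181 CPM (6049 to 6315). The 53 macrophage-like tumour cells held 2072 UMIs, or 3984 CPM (3815 to 4160). The 2222 fibroblast-like tumour cells held 29077 UMIs, or 1011 CPM (999.9 to 1023). These 3 levels lie apart by more than their counting error, in all cells of each class. That error leaves out the spread between cells, and 1 macrophage-like cell held 1219 of the 2072 UMIs.

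Lower levels were counted in the remaining tumour classes. The 72 lymphatic endothelial-like cells held 142 UMIs, or 211 CPM (178 to 249), of which 88 were in 1 cell. The 75 cells of the B-like cluster, which also holds some T or NK cells, held 7 UMIs, or 25.4 CPM (10.2 to 52.3).

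In the normal library, the 1393 macrophage-like cells held 62 UMIs, or 5.15 CPM (3.95 to 6.60), below the tumour B-like cluster. The 1464 normal fibroblast-like cells held 1 UMI, or 0.0715 CPM with an upper bound of 0.399. The 1351 endothelial-like, 144 pericyte-like and 73 B-like normal cells held none, which allows up to 0.521, 3.19 and 4.41 CPM at 3 counts. The normal fibroblast-like level and these cannot be ordered at this depth.

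**Figure D1:**
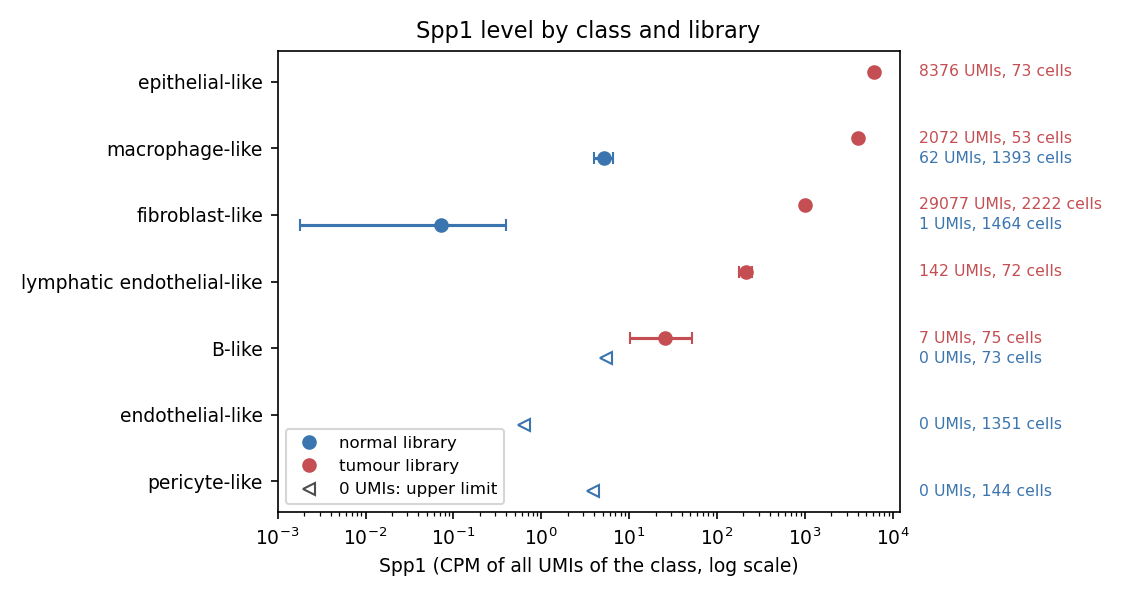
Spp1 level (CPM of all UMIs of the class, log scale) in each class of at least 20 cells, in the normal (blue) and tumour (red) library. Bars are exact 95% intervals of the counts, open triangles are upper limits where no UMI was counted, and the UMIs and cells behind each point stand at the right. The tumour epithelial-like, macrophage-like and fibroblast-like classes sit between 1011 and 6181 CPM, and every normal class sits at or below 5.15 CPM or its upper limit.

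Between fibroblast-like cells of the 2 libraries, 1 normal UMI stood against 29077 in the tumour, a ratio of 14140 with an interval from 2538 to 558512 that is wide because of the single normal UMI. In macrophage-like cells the ratio was 774 (601 to 1013). The latter compares unlike populations: the tumour cells were nearly all from the cluster led by Ccr2, Lyz1 and Il1b, which held 50 of the 53, while most normal macrophage-like cells lay in other clusters. Within the Ccr2-led cluster, 389 normal cells had 18.8 CPM (14.3 to 24.2) and 50 tumour cells 4193 CPM (4013 to 4379), a ratio of 223 (172 to 294). Of the 62 normal macrophage-like UMIs, 59 were in that cluster. The Clec10a-, Cd209f- and F13a1-led cluster of resident type, with 659 normal cells, held 3 UMIs.

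How many genes moved this far is the background for these ratios. Called here is a gene at 50 CPM or more in either sum, at least 2-fold apart, whose interval excludes a ratio of 1. Among 3641 genes of the fibroblast-like sums, 9.37% were called higher and 10.9% lower in the tumour. Among 3499 genes of the macrophage-like sums, 14.5% were higher and 13.5% lower. In the Ccr2-led cluster 16.2% of 3398 genes were higher and 11.3% lower. The split in fibroblast-like cells depends on the scaling: 341 of the 739 called genes (46.1%) were higher when scaled to total UMIs, and 505 of 732 (69.0%) with edgeR's TMM factors, which raise every tumour fibroblast-like ratio by 0.31 on the log2 scale. Since the contrast was part of how Spp1 was chosen, nothing is read from its own place among these genes.

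In most tumour fibroblast-like cells no Spp1 UMI was counted, and a small number of cells held most of the UMIs. Of the 2222 cells, 465 (20.9%, 19.3 to 22.7%) had a UMI and 236 had at least 10. With each cell thinned to 5000 UMIs, which left out 364 shallower cells, the share with a UMI was 19.5%, and at 2000 UMIs it was 14.6%, so the share depends on depth. The highest cell held 2023 Spp1 UMIs of 23358, or 86608 CPM, with 343 UMIs of fibroblast markers, 1 of macrophage markers and none of epithelial markers.

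The top 10% of these thinned cells held 94.9% of the Spp1 UMIs and the top 1% held 38.1%. For the median gene of at least 100 CPM these shares were 35.4% and 5.92%. Only Cxcl13, Saa3 and Sfrp4 of 1502 such genes ranked above Spp1 in the share of the top 10%. The CPM of the class is therefore the level of few cells: averaged with every cell weighted the same it was 673 CPM, and without the 1% of cells richest in Spp1 it was 537 CPM.

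Of the 3 tumour fibroblast-like clusters of more than 30 cells, 2 had nearby shares and levels of Spp1 and the third, led by Ptx3, lay far below them. The cluster led by Inhba, Tnc and Cthrc1, of which Tnc encodes the matrix protein tenascin C and Cthrc1 a collagen-linked secreted protein, held 6 of 8 myofibroblastic markers at least 2-fold above the other tumour fibroblast-like cells. It had 1639 CPM (1614 to 1664) over 389 cells, and 170 cells (43.7%) had a UMI. At least 10 UMIs were found in 107 of its cells, at least 100 in 42 and at least 500 in 9.

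The cluster led by Thbs4, Cilp and Fxyd6, genes for 2 matrix proteins and a regulator of the sodium pump, had a nearby level of 1504 CPM (1475 to 1533) over 567 cells. Here 237 cells (41.8%) had a UMI, 123 had at least 10, 26 at least 100 and 1 at least 500. Its median depth was 11432 UMIs against 26316 in the Inhba-led cluster. Which of the 2 clusters stood higher turned with the clustering: it was the Thbs4-led one at resolution 1 (1866 against 1626 CPM) and under strict filters (1894 against 1629 CPM), and the Inhba-led one with doublets kept (970 against 1905 CPM). At 5000 UMIs per cell the shares were 37.3% (33.1 to 41.6%) and 34.5% (29.7 to 39.4%), and their intervals overlap. Only 1 of 8 myofibroblastic markers was at least 2-fold higher in the Thbs4-led cluster, and 4 were lower.

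The cluster led by Ptx3, Apod and Mmp3, the largest with 1233 cells, had 5 of 8 inflammatory and 5 of 6 universal fibroblast markers at least 2-fold higher and all 8 myofibroblastic markers lower. Its level was 155 CPM (148 to 163), and 57 cells (4.62%, 3.52 to 5.95%) had a UMI. Of its 1749 UMIs, 809 and 779 were in 2 cells, and 6 cells had at least 10. Its share is not above that of the B-like cluster, where 4 of 75 cells (5.33%, 1.47 to 13.1%) had a UMI at a median of 2824 UMIs against 8127, so the share is not read as expression. At least 2 UMIs were found in 14 of its cells. At 2000 UMIs per cell 1.81% (1.12 to 2.75%) of the Ptx3-led cells had a UMI and none of 63 B-like cells, with an upper bound of 5.69%. The 2 rich cells carried 247 and 229 UMIs of fibroblast markers. At resolution 1 its leading genes were spread over one cluster at 4.58 CPM, led by Ptx3, and another at 420 CPM, led by Apod. The shares of cells with a UMI were near each other, at 4.39% of 547 cells in the former and 4.10% of 488 in the latter.

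**Figure D2:**
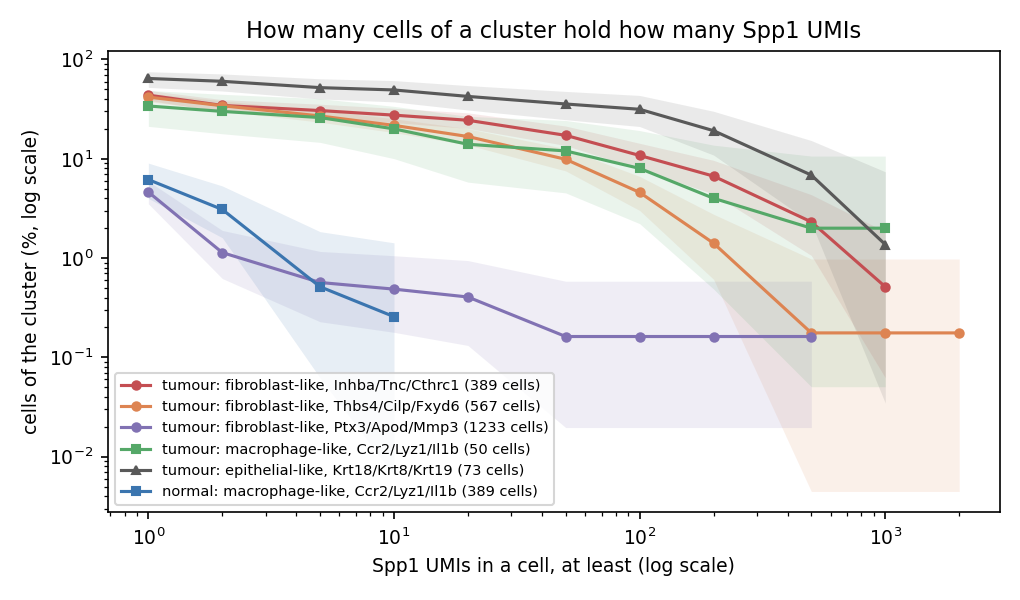
Share of cells (%, log scale) that held at least the number of Spp1 UMIs on the x axis (log scale), for the 3 main tumour fibroblast-like clusters, the tumour epithelial-like cluster and the Ccr2-led macrophage-like cluster in both libraries. Shaded bands are exact binomial 95% intervals. The Inhba- and Thbs4-led clusters start at 43.7% and 41.8% and part at high UMI numbers, where 42 and 26 cells held at least 100. The Ptx3-led cluster starts at 4.62%, and the normal macrophage-like cells end at 10 UMIs.

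Among the 53 tumour macrophage-like cells, 18 (34.0%, 21.5 to 48.3%) had a Spp1 UMI. The 11 richest held 1219, 220, 176, 161, 83, 65, 48, 26, 17, 15 and 11 UMIs, and the other 7 positive cells held 31 in all. The cell with 1219 UMIs held 59.6% of the Spp1 of its cluster, and without it the class stood at 1704 CPM. That cell had 131 UMIs of macrophage markers, 3 of fibroblast markers and none of epithelial markers. In the normal Ccr2-led cluster 24 of 389 cells (6.17%, 3.99 to 9.04%) had a UMI and the richest held 10. The tumour macrophage level thus rests on few cells, and no normal macrophage-like cell reached the median of the positive tumour cells, which was 15 UMIs in this cluster.

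The epithelial-like tumour cells held Spp1 more evenly than the others. Of 73 cells, 47 (64.4%, 52.3 to 75.3%) had a UMI, 36 had at least 10 and 23 at least 100, with a maximum of 1206. The 47 cells without an Xist UMI, at a median of 21219 UMIs, held 7670 of the 8376 Spp1 UMIs and stood at 7408 CPM (7243 to 7576). The 26 cells with Xist stood at 2208 CPM (2048 to 2377). In the fibroblast-like class Xist was found in 95.1% of cells, and in 234 of the 236 cells with at least 10 Spp1 UMIs. Of the 29077 Spp1 UMIs of that class, 28988 were in cells with Xist.

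Several measurements bear on RNA from other cells, whose part in these levels was not tested. The macrophage-marker level of tumour fibroblast-like cells moved with Spp1: the 12 markers summed to 117 CPM in the 1757 cells without Spp1, 226 CPM in the 229 cells with 1 to 9 UMIs and 210 CPM in the 236 cells with at least 10. The 8 epithelial markers summed to 70.4, 100 and 168 CPM. Nearly all of the epithelial sum was the transcription factor gene Sox9, at 67.4, 93.2 and 159 CPM. Defining macrophage markers were at or near 0 in the cells richest in Spp1: Adgre1 and Fcgr1 were at 0, Csf1r at 3.96 CPM, Lyz2 at 4.17 CPM and C1qa at 1.25 CPM, against 467, 4586 and 2686 CPM for the last 3 in tumour macrophage-like cells. Among epithelial markers Cdh1 was at 0, Epcam at 1.25 and Krt18 at 3.75 CPM.

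Without any UMI of the 20 markers, 800 fibroblast-like cells remained, at 288 CPM (276 to 300) and 9.50% positive. Cells without markers are also shallower, with a median depth of 7715 UMIs against 10439 in all. In the Thbs4-led cluster the 400 cells without an epithelial marker UMI had 1517 CPM and the 167 with one had 1478 CPM. In the Inhba-led cluster the values were 1146 and 2017 CPM. Split by macrophage markers, cells without one were lower in every one of the 3 clusters, at 914 against 1759 CPM in the Thbs4-led, 1115 against 1860 CPM in the Inhba-led and 8.59 against 319 CPM in the Ptx3-led cluster.

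The 205 tumour barcodes under 1000 UMIs held 11 Spp1 UMIs, or 72.1 CPM, and 4.88% of them had one. For the macrophage-like cells, the 20 without a fibroblast or epithelial marker UMI stood at 226 CPM (160 to 311), with 5 of them positive. The cell with 1219 UMIs is not among those 20.

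Within tumour fibroblast-like cells, the summed myofibroblastic markers were higher, and the summed inflammatory and universal fibroblast markers lower, in cells with more Spp1 UMIs. The 8 myofibroblastic markers summed to 2983, 5873 and 8498 CPM in cells with none, 1 to 9 and at least 10 Spp1 UMIs. The 8 inflammatory markers summed to 9375, 5245 and 2732 CPM, and the 6 universal fibroblast markers to 3010, 1660 and 605 CPM. Of single genes, named after their values were seen, Tnc stood at 362, 893 and 2066 CPM, Tagln, a smooth muscle actin-binding protein, at 652, 1393 and 1904 CPM, and Clec3b at 421, 102 and 2.71 CPM. The complement gene C3 stood at 3397, 1297 and 467 CPM. Among the inflammatory markers the cytokine gene Lif went the other way, at 143, 212 and 232 CPM. The 3 groups also differ in depth, with medians of 9306, 13521 and 17305.5 UMIs. They differ in cluster too. The Ptx3-led cluster, low in myofibroblastic markers, has 1233 of the 2222 cells. It holds 57 of the 465 cells with a Spp1 UMI and 6 of the 236 with at least 10. The part of depth and of cluster in these values was not tested.

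**Figure D3:**
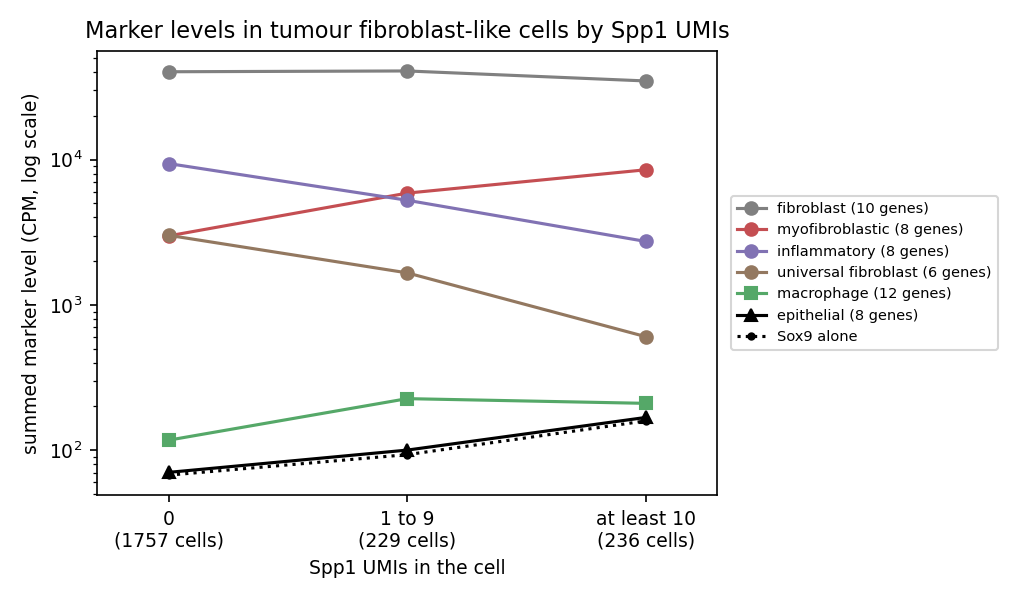
Summed level of marker lists (CPM, log scale) in tumour fibroblast-like cells with 0, 1 to 9 and at least 10 Spp1 UMIs. The dotted line shows Sox9 alone, which runs close to the epithelial list that contains it. Myofibroblastic markers go from 2983 to 8498 CPM, and universal fibroblast markers from 3010 to 605 CPM.

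Across 1858 tumour fibroblast-like cells thinned to 5000 UMIs, the Spearman correlation of Spp1 with 4974 genes detected in at least 10% of cells was as low as -0.47, with a median of 0.01. These cells share a library, and the coefficients are given as a description. Among the 10 most like were Tnc (0.48), the collagen gene Col8a1 (0.46), Pmepa1 (0.43), known as a TGF-beta target that dampens the pathway, Tagln (0.40) and Ltbp2 (0.36), a latent TGF-beta binding protein family member. Rnf149 and Tgfb1 itself (both 0.34), Thbs4 and the actin-binding Cald1 (both 0.33) were also among them. The least like were the small proteoglycan gene Dcn at -0.47, C3 at -0.40 and the tenascin gene Tnxb at -0.39.

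Since clusters differ in Spp1, the same coefficient was taken within each. Tnc stood at 0.07 in the Ptx3-led, 0.32 in the Thbs4-led and 0.41 in the Inhba-led cluster. Tagln stood at 0.32 in the Thbs4-led cluster but at 0.07 in the Inhba-led one. Within the Inhba-led cluster the most like gene was Serpine2, a secreted protease inhibitor, at 0.48, followed by the chemokine gene Cxcl14 at 0.41. Dcn stood at -0.34 in the Thbs4-led and -0.54 in the Inhba-led cluster. Coefficients in the Ptx3-led cluster, where 3.68% of thinned cells had a UMI, lay between -0.15 and 0.18, and nothing is read from them.

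**Figure D4:**
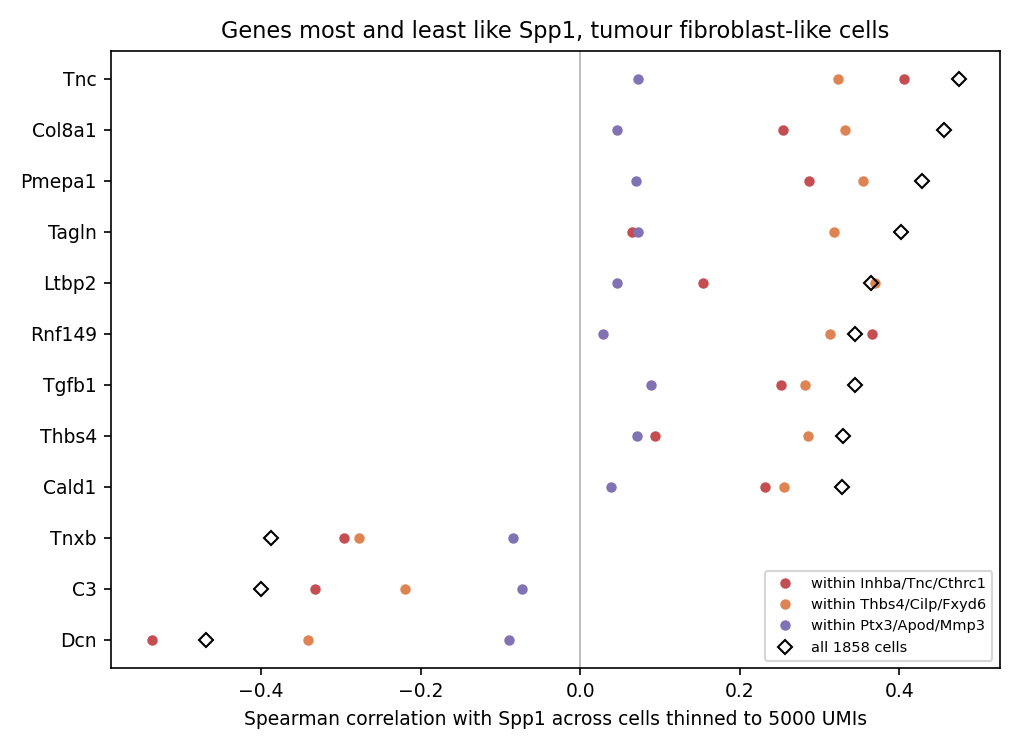
Spearman correlation with Spp1 across tumour fibroblast-like cells thinned to 5000 UMIs, for 9 of the 10 genes most like and the 3 least like Spp1. Open diamonds stand for all 1858 cells and dots for each of the 3 clusters. Of these genes Tnc is highest at 0.48 and Dcn lowest at -0.47, and values within the Ptx3-led cluster lie nearest to 0 for each of these genes but Tagln.

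Across the 11 sums of classes and libraries with at least 20 cells, the 10 genes whose log2(CPM + 10) followed Spp1 most closely (Pearson, 6164 genes) were Egln3, Eif4e, Pgam1, Lrrc59, Acot7, Ube2m, Mif, Snhg6, Gapdh and Higd1a. Their coefficients ran from 0.94 down to 0.89. Egln3, an oxygen-sensing prolyl hydroxylase, stood at 171 CPM in tumour macrophage-like, 67.9 CPM in epithelial-like and 23.8 CPM in fibroblast-like cells, and at most 3.73 CPM in any normal sum. Pgam1 and Gapdh encode glycolytic enzymes. These sums come from 2 libraries only, so a gene that differs between the libraries in all classes scores high.

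The receptors of osteopontin were present on both sides. Of 10 receptor genes 5 passed the level minimum in fibroblast-like cells. Of these 2 were called higher in the tumour and none lower, against 9.37% and 10.9% of all genes tested. Their median log2 ratio was 0.40, against -0.16 over all genes tested. Cd44, the hyaluronan receptor that also binds osteopontin, was at 35.4 CPM (normal) and 147 CPM (tumour), a ratio of 4.16 (3.79 to 4.57). Itga5, the alpha 5 integrin subunit, was at 43.2 and 138 CPM, a ratio of 3.20 (2.94 to 3.50). The other integrin subunits that passed moved less: Itgav was at 88.1 and 116 CPM, Itgb1 at 703 and 584 CPM and Itgb5 at 195 and 170 CPM. The last 2 lie below 1 as ratios when scaled to total UMIs, by less than the shift that TMM adds, so their direction flips with the scaling.

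In macrophage-like cells 6 receptor genes passed, and 3 were called higher and none lower, against 14.5% and 13.5% of all genes tested. Their median log2 ratio was 1.07, against -0.05 over all genes tested. Itgav stood at 43.1 CPM (normal) and 148 CPM (tumour), a ratio of 3.44 (2.67 to 4.37). Itgb5 stood at 53.8 and 137 CPM, and Itga5 at 17.9 and 53.8 CPM. Cd44 was at 311 and 542 CPM, a ratio of 1.74 (1.54 to 1.97), under 2-fold. Itga4, the alpha 4 subunit found on blood cells, was at 158 and 84.6 CPM. Within the Ccr2-led cluster Itgb5 was at 121 and 133 CPM, a ratio of 1.10, and Itga4 was called lower, so these counts also depend on which macrophage clusters are compared. Itgb6 was at 0.143 CPM or less in the fibroblast-like and macrophage-like sums.

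Of the enzymes that cut, cross-link or change osteopontin, most of those above the level minimum were called higher in the tumour. In fibroblast-like cells only Mmp3 and Tgm2 of 10 passed the minimum, and both were called higher, as were 9.37% of all genes tested. Mmp3, the matrix protease stromelysin-1, was at 45.5 CPM (normal) and 451 CPM (tumour), a ratio of 9.91 (9.15 to 10.7), and it was highest in the Ptx3-led cluster at 847 CPM, the one of the 3 main clusters with the least Spp1. Tgm2, the tissue transglutaminase, was at 35.1 and 82.9 CPM.

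In macrophage-like cells 5 enzymes passed, and 4 were called higher and none lower, against 14.5% and 13.5% of all genes tested. Mmp12, macrophage elastase, stood at 34.8 CPM (normal) and 2681 CPM (tumour), a ratio of 77.0 (69.0 to 86.1). Tgm2 stood at 20.8 and 869 CPM, Acp5, the tartrate-resistant phosphatase that can remove osteopontin's phosphates, at 12.2 and 287 CPM, and Fam20c, the kinase that adds them, at 61.9 and 137 CPM. Mmp9 was at 162 and 233 CPM. Within the Ccr2-led cluster all 5 were called higher, against 16.2% of all genes tested. Mmp9 was at 40.7 and 248 CPM there, a ratio of 6.09, and Mmp12 at 132 and 2857 CPM, a ratio of 21.7. Thrombin (F2) and the carboxypeptidase gene Cpb2, liver products, held at most 2 UMIs in any of these sums.

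Transcription factors with known action on Spp1 gave no common direction. In fibroblast-like cells 4 of 8 passed the minimum. Hif1a was called higher, at 109 CPM (normal) and 283 CPM (tumour), and Ets1 lower, at 66.6 and 23.7 CPM. Over all genes tested there, 9.37% were called higher and 10.9% lower. Jun was at 2600 and 2474 CPM and Fos at 2881 and 3460 CPM (both are immediate early genes). Runx2, the bone factor that acts through RUNX motifs such as the one in the promoter, was under the minimum, at 7.08 and 31.9 CPM, a ratio of 4.50 (3.65 to 5.59). Its Spearman correlation with Spp1 across the thinned tumour fibroblast-like cells was 0.09. In macrophage-like cells 4 passed. Hif1a was at 97.6 and 517 CPM and called higher, and Jun and Fos were called lower. Over all genes tested there, 14.5% were called higher and 13.5% lower. With 4 genes tested in each class, nothing is read from these counts.

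Among the SIBLING genes only Spp1 stood above 0.313 CPM in these sums. Ibsp, Dspp and Mepe had no UMI in the fibroblast-like or macrophage-like sums of either library, and Dmp1 reached 0.313 CPM in tumour fibroblast-like cells. Of the 9 genes of mineralised tissue only Mgp, an inhibitor of calcification, passed the minimum in fibroblast-like cells, at 4118 CPM (normal) and 10139 CPM (tumour). The osteoblast genes Bglap, Bglap2 and Sp7 were at 0.139 CPM or less in these sums, and the bone phosphatase gene Alpl was at 13.9 and 9.15 CPM.

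The macrophage states in which Spp1 is usually described were compared through 3 lists. Their background is all genes tested in macrophage-like sums, of which 14.5% were called higher and 13.5% lower. Of 13 lipid-associated macrophage genes, all above the minimum, 5 were called higher and 2 lower in tumour macrophage-like cells, with a median log2 ratio of 0.76. The share called lower is near that of all genes. Fabp5, a lipid chaperone, stood at 56.0 CPM (normal) and 625 CPM (tumour), Cd9 at 51.2 and 696 CPM, and Gpnmb at 6.97 and 73.1 CPM. Trem2, the lipid receptor that names this state, stood at 148 and 250 CPM, a ratio of 1.69 (1.40 to 2.02), and at 271 and 223 CPM within the Ccr2-led cluster. Apoe was called lower, at 20003 and 8247 CPM, as was Lpl, at 377 and 98.1 CPM.

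Of 9 monocyte-derived inflammatory genes, 8 were called higher and none lower, with a median log2 ratio of 5.84. Arg1, arginase, stood at 12.5 and 3752 CPM, Il1b at 262 and 4980 CPM, Chil3 at 1.33 and 999.9 CPM and Thbs1 at 122 and 2786 CPM. The ninth, Ccr2, stood at 228 and 265 CPM, and within the Ccr2-led cluster it was called lower, at 792 and 283 CPM. Of 9 resident macrophage genes, 8 were called lower and none higher, with a median log2 ratio of -3.56. Lyve1 stood at 1411 and 119 CPM and Timd4 at 447 and 13.5 CPM. Within the Ccr2-led cluster 4 of 7 were called lower, against 11.3% of all genes tested there. These counts are of the whole class, in which 18 of 53 tumour cells had a Spp1 UMI.

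In both classes most hypoxia and glycolysis genes above the level minimum were called higher in the tumour. Over all genes tested, 14.5% of the macrophage-like and 9.37% of the fibroblast-like genes were called higher. Of the 12 list genes 10 passed the minimum in macrophage-like cells, and all 10 were called higher, with a median log2 ratio of 4.10. Vegfa stood at 8.97 and 685 CPM, and the glucose transporter Slc2a1 at 4.90 and 371 CPM. In fibroblast-like cells 6 of 9 were called higher and 1 lower, with a median log2 ratio of 1.93. Vegfa stood at 63.1 and 392 CPM, Mif at 85.2 and 557 CPM and Slc2a1 at 6.29 and 68.5 CPM, while Adm was lower, at 190 and 82.3 CPM. With TMM factors 7 were called higher and none lower. These are levels of whole classes. Across the thinned tumour fibroblast-like cells, the 10 measured list genes had a median Spearman correlation with Spp1 of 0.08, against 0.01 over all genes. Mif stood at 0.19 and Adm at -0.16. Within tumour fibroblast-like cells the Inhba-led cluster had the most Vegfa, at 661 CPM against 241 in the Thbs4-led and 244 in the Ptx3-led cluster, although the first 2 had nearby levels of Spp1.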

How the data were processed

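Single-cell 3′ RNA was counted in 1 normal and 1 tumour library, sorted and digested differently per the labels' protocols. For each gene and cell barcode the authors deposited an unnormalized UMI count, made with Cell Ranger 3.1.0 on mm10 per the submitters' processing notes, and their barcode lists were already called as cells. The deposited counts sum to 36675424 UMIs over 5437 normal and 33285044 UMIs over 2942 tumour barcodes. Kept were barcodes with at least 500 genes, 1000 UMIs and at most 10% mitochondrial UMIs. Scrublet's automatic threshold gave 112 normal doublets (2.43%). In the tumour library it marked 0.0777%, under a limit of 0.5%, so the 53 cells with the highest scores (0.8% per 1000 cells) were removed instead.

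The 2 libraries were put through 1 clustering, not integrated, with scanpy 1.11.5 and igraph 0.11.9. Each cell was scaled to 10000 and log transformed, with 2000 variable genes less Spp1 (1999 used), 30 principal components, 15 neighbours, Leiden at resolution 0.5, giving 17 clusters. A cluster took the class whose markers were detected in the largest share of its cells, if at least 3 were found in 25% of cells. It stayed unnamed if another class had more markers among its top 10 genes by fold. Myofibroblastic, inflammatory and universal markers counted as fibroblast markers in that step, while antigen-presenting ones did not, a choice made after the clusters were seen.

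Counts were summed over each class. CPM and shares carry exact Poisson and Clopper-Pearson 95% intervals, and ratios an exact conditional interval (scipy 1.17.1). A count of 0 was read as at most 3 counts. Steps were tested on simulated data. TMM factors came from edgeR 4.0.16. Thinning drew 5000 UMIs per cell without replacement.

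Spp1, the marker lists and the 9 gene lists (84 genes) were chosen with earlier results of these data known. The rule for named genes was Spp1 in every class, list members at 20 CPM or more in a sum, and the 10 genes most like and 3 least like Spp1. Genes outside it were named after their values were seen, and some genes the rule names are not reported here. Alternatives tried were other filters, doublets kept, resolution 1, Spp1 kept in clustering, equal cell weights, marker-free cells, cells without the top 1%, other scalings, level minima and thinning depths.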

Additional observations from a re-analysis of the deposited data

Results flagged for a closer look

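Barcodes that failed the filters also held Spp1. The 369 failed tumour barcodes held 175 UMIs, or 345 CPM, with 34 barcodes (9.21%) positive, and without the richest one, which held 71 of its 3835 UMIs as Spp1, they stood at 207 CPM. The 821 failed normal barcodes held 108 UMIs, or 116 CPM, all in 1 barcode of 7508 UMIs and 17.9% mitochondrial reads with 71 epithelial-marker and 147 acinar-marker UMIs. The tumour value was singled out because these barcodes lie outside the cells kept by the main filters. Lenient filters (200 genes, 500 UMIs, 20% mitochondrial), tried as an alternative, took some failed barcodes in. Under them a normal cluster led by Krt8 held 108 Spp1 UMIs. The tumour doublets that were removed held 1382 Spp1 UMIs.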

How the results depend on the processing

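No alternative turned the sign of the Spp1 ratios between libraries, in fibroblast-like or in macrophage-like cells. In marker-free cells the tumour macrophage-like level fell below the fibroblast-like one with overlapping intervals, so their order is not resolved there. The split of called fibroblast-like genes turned from 341 higher and 398 lower to 505 and 227 with TMM scaling. No paired analysis was possible because each group is 1 library. With every cell weighted the same, Spp1 in the tumour stood at 673 CPM (fibroblast-like) and 2228 CPM (macrophage-like), and the macrophage log2 ratio was 8.71. In cells without a marker UMI of the other classes the levels were 288 and 226 CPM and the log2 ratios 9.20 and 5.70. Without the 1% of cells richest in Spp1, tumour fibroblast-like cells stood at 537, tumour macrophage-like at 1704 and normal macrophage-like at 1.09 CPM, with log2 ratios of 11.27, a lower bound since no normal UMI was left, and 10.61. Strict filters (1000 genes, 2000 UMIs, 5% mitochondrial) gave 1797 CPM and a log2 ratio of 8.46 in macrophage-like cells. They drop the cell with 1219 UMIs, whose mitochondrial share is 5.49%. Keeping doublets gave 1032 CPM in fibroblast-like cells. Alternatives added after the data were seen gave 4253 CPM for those tumour macrophage-like cells that had Xist, and 4193 against 18.8 CPM, a log2 ratio of 7.80, in the Ccr2-led cluster alone. The thinned share was 14.6% at 2000 UMIs per cell and 15.1% for at least 2 UMIs. Genes called apart in fibroblast-like cells numbered 1303 at a minimum of 20 CPM, against 739. With 1 library a group and 53 tumour macrophage-like cells, depth and cell number limit every macrophage value.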
